A study of Mus musculus with 25 samples.

Results

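The loci of the 5 genes whose proteins were fused to parts of Dam were examined in mK4 cells, a mouse line that comes from kidney mesenchyme of the embryo. Members were all regions of 9 deposited lists that touched 1 of 5 windows of build mm9. The windows were chosen by gene, with earlier results of these data known, among them that some of the highest SpDamID scores lay at Notch1. They were chr2:26300000-26375000 for Notch1, chr13:83640000-83820000 for Mef2c, chr15:81410000-81490000 for Ep300, chr11:50060000-50110000 for Maml1 and chr5:53850000-54060000 for Rbpj. They held 298 of 222320 regions, namely 90 at Notch1, 21 at Mef2c, 65 at Ep300, 41 at Maml1 and 81 at Rbpj.

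In split DamID (SpDamID) 2 inactive parts of the bacterial methylase Dam are each joined to a protein, and adenine in GATC is methylated where both parts meet. In the labels, D marks one part and AM-Ert2 the other. The pairs were N1-D with RBP-AM-Ert2, MAML-AM-Ert2 or p300-AM-Ert2 (3 libraries each), N1-D with N1-AM-Ert2 (2), Mef2c-D with MAML-AM-Ert2 (1) and Mef2c-D with p300-AM-Ert2 (1). A Dam group of 3 libraries was the common reference of all 6 lists, so these lists are not independent of one another. FAIRE, which recovers open chromatin, was made in control and in N1wt cells (3 libraries each, with 1 N1wt input) and gave a total and a Notch-dependent list, both for N1wt, and a ChIP library (1) for myc-tagged N1 gave a list against its input (1). All libraries are labelled mK4. The strain label was CD2 for 1 N1/N1 library, CD3 for the Mef2c/MAML library and CD1 for all others. The sources used here do not give the promoters of the constructs, the extent of each fused protein or how the constructs were brought into the cells. No expression was measured, so the labelled cell type could not be set against its markers.

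Notch1 encodes a receptor whose cleaved inner part enters the nucleus. There it joins Rbpj, the DNA-binding protein of the pathway, and Maml1, a co-activator that in turn recruits the acetyltransferase encoded by Ep300. Mef2c encodes a MADS-box transcription factor that can also work with MAML and p300 proteins. Notch signalling is known for its part in forming nephron segments from kidney mesenchyme. The lists carry only initials of the proteins, and the labels name MAML without a family member, so that Maml1 is the member meant is an assumption.

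The sequence that links the assay to these genes is GATC, the site that Dam methylates and DpnI cuts once it is methylated. To show how it lies in gene starts, the 250 bases before the RefSeq start (GRCm38.p6) of Notch1 and of Rbpj, the first of 2 RefSeq promoters, are printed on the strand of the gene. Capitals mark GATC and, on either strand, TGGGAA, the core of the motif that the RBP protein binds. The 2 motifs did not overlap.
Notch1: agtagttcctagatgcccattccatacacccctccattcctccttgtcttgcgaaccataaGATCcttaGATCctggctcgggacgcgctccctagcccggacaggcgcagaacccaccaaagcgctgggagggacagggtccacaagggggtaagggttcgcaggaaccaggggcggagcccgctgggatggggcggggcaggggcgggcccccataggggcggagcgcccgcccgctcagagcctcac
Rbpj: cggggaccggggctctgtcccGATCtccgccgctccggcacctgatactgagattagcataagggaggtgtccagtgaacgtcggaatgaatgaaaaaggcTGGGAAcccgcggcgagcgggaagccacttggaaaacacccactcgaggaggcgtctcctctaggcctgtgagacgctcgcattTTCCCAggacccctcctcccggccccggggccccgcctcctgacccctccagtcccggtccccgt
The Notch1 promoter held 2 GATC sites, starting 189 and 181 bases before the start, and no TGGGAA. The Rbpj promoter held 1 GATC site at 229 bases and TGGGAA at 149 and 65 bases before the start. Of 32851 promoters of this length, 41.9% held GATC and 21.6% held TGGGAA. The 1 promoter each of Ep300 and Maml1, 2 of the 3 of Mef2c and the other promoter of Rbpj held no GATC in this stretch. Regions of mm9 were not set against these promoters, which come from another build, and the sequences of the regions were not used here.

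The lists hold 1 value per region and none per library, so no value below has a replicate error and no test was made. The 6 SpDamID lists ran from 16547 to 50381 regions, with median scores from 285 to 366 and highest scores from 851 to 870. What the score's units are, the sources used here do not say. A region with 1 start and 1 end is called a fragment, whichever lists held it, and the 6 lists together had 96409 distinct fragments, of which 114 lay in the 5 windows. A high score means here the highest 1% of a list, which began at 643 in N1/RBP, 709 in N1/MAML, 688 in N1/p300 and 658 in N1/N1, and at 664 and 627 in the MAML and p300 lists with Mef2c.

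Each locus was marked at high scores by the lists whose pair contains the protein of that gene, and by no other SpDamID list. There were 11 pairings of a locus with a list that contains its protein, and all 11 had at least 1 region with a high score. None of the 19 other pairings had one among 97 regions, and since high scores are 1% of a list by definition, a count of 0 there is near the share over all regions. In the lists that contain the protein, 89 of 156 regions scored high. The highest region of 5 of the 6 lists lay in these windows: that of N1/N1 at Notch1, those of Mef2c/MAML and Mef2c/p300 at Mef2c, that of N1/p300 at Ep300 and that of N1/MAML at Maml1. Of the 120 regions that are among the 20 leading ones of the 6 lists, 73 lay in these 595 kb. By list the number was 20 for Mef2c/p300, 19 for N1/p300, 12 for N1/MAML, 9 for Mef2c/MAML, 7 for N1/N1 and 6 for N1/RBP.

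**Figure D1:**
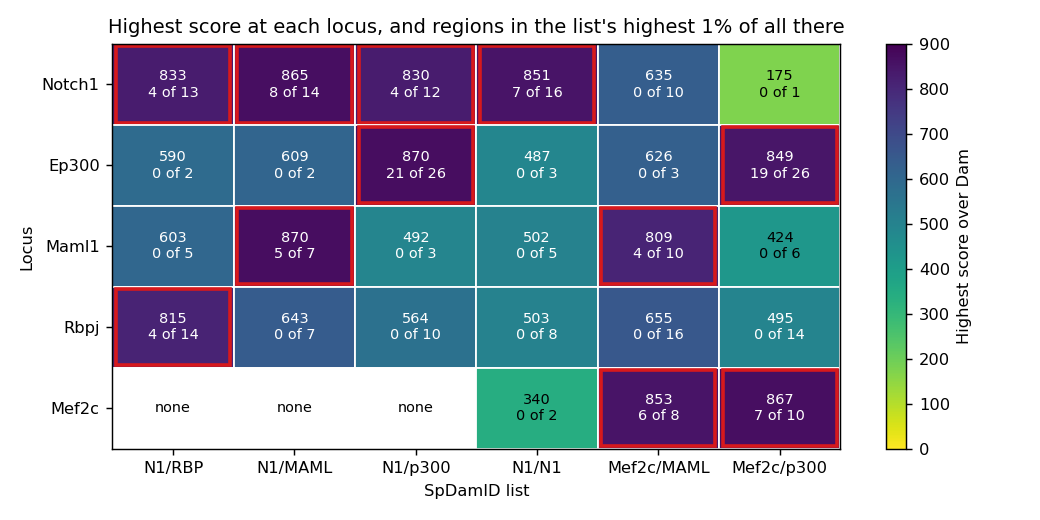
Highest SpDamID score over Dam (colour and upper number) of each list (columns) at each locus (rows), with the number of regions in the list's highest 1% of all its regions there (lower line); red frames mark lists whose pair contains the gene's protein. The 11 framed cells run from 809 to 870 and the others reach at most 655.

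Ep300, the gene of the acetyltransferase p300, had more fragments with high scores than any of the other 4 loci. Between chr15:81430389 and 81482435, a stretch of 52.0 kb, 26 fragments covered 45.7% of the bases, and each was held by a p300 list and by no other list. Both p300 lists held 23 of them, while Mef2c/p300 alone held 2, with scores of 377 and 441, and N1/p300 alone held 1, with 266. Of all 96409 fragments, 0.365% were held by both p300 lists and no other, against 23 of the 30 at this locus. The fragments ranged from 259 to 2317 bp, with 9 pairs of direct neighbours and gaps of up to 4265 bp without any region.

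High scores were reached by 21 of these fragments. Their N1/p300 scores ran from 724 to 870 with a median of 847, and the list's median was 342. Their Mef2c/p300 scores ran from 580 to 849 with a median of 800, against 286 for the list. The highest fragment of the locus in either list was chr15:81430389-81432018, at 870 in N1/p300 (rank 1) and 849 in Mef2c/p300 (rank 2). At the far end of the stretch, chr15:81480119-81482435 scored 869 and 819. The 2 fragments of both lists that missed the highest 1% were chr15:81464041-81465915, at 675 and 536, and chr15:81451532-81452179, at 629 in N1/p300 but 3 in Mef2c/p300. By rank within each list, N1/p300 did not stand ahead of Mef2c/p300 on all 21 high fragments. Its scores were higher for 21 of 21, by 6 to 173. The libraries behind the 2 lists differ in number, so a difference between lists of this size cannot be told apart from one between libraries. Of consecutive 80 kb windows over the genome, 1.34% held any fragment with a high score in a p300 list, and the fullest of them held 20 and was itself part of this locus, from chr15:81440001 to 81520000.

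Neither FAIRE nor ChIP marked the Ep300 stretch. None of the 21 high fragments overlapped a total FAIRE region, against 33.3% of the 493 fragments of the genome with a high score in a p300 list. Before its start lay a place of another kind, where chr15:81416800-81417363 was held by all 6 lists, at 590 in N1/RBP, 609 in N1/MAML, 617 in N1/p300 and 487 in N1/N1, and at 626 and 235 in the MAML and p300 lists with Mef2c. This fragment overlapped a total FAIRE region with a MACS score of 155.99 and had the ends of a ChIP region with a ratio of 15.75 to input. Its scores lay above the median of each list but for Mef2c/p300, and none was high.

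At Maml1, the gene of the co-activator, 5 fragments with high scores lay between chr11:50071425 and 50080145, where they covered 71.3% of 8.72 kb. Both MAML lists held all 5. N1/MAML gave 870, 821, 852, 869 and 817 in the order of position, all between rank 1 and rank 9 of its 16547 regions. Mef2c/MAML gave 800, 631, 736, 809 and 761. N1/MAML was higher in 5 of 5, by 56 to 190. By rank within each list it stood ahead on all but chr11:50079989-50080145, at rank 9 against 8. The lists come from 3 libraries and 1, and their scores may not be on 1 scale. The N1/N1 list held 2 of the 5 as well, chr11:50071425-50072897 and chr11:50078833-50079988, at 204 and 178, which is below its median of 285. Over the genome, 1.12% of 50 kb windows held a high score of a MAML list, and 1.27% of fragments were held by both MAML lists and no other.

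No high fragment at Maml1 overlapped a total FAIRE region, against 47.3% of those with a high score in a MAML list over the genome. The N1 ChIP list did touch this stretch. The fragment chr11:50079989-50080145 had the ends of a ChIP region with a ratio of 12.99 to input, and 2 more ChIP regions followed directly, at 17.79 and 17.23. All 3 had an input signal of 0.1 and ratios near the list's median of 15. The fourth ChIP region of the window, chr11:50071370-50071385, lay just before the stretch, at 13.13. The other 12 fragments of the window scored up to 603, the score of chr11:50088422-50089594 in N1/RBP, a fragment that N1/N1 held at 502, N1/p300 at 399 and Mef2c/p300 at 396. The 1 total FAIRE region of the window, chr11:50103945-50106531, scored 215.35 and overlapped 3 fragments, with SpDamID scores from 396 to 476.

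At Rbpj, the gene of the DNA-binding partner, N1/RBP alone marked the end of the window. It held 5 fragments between chr5:54033224 and 54044979, at scores of 790, 774, 612, 652 and 815, and no other SpDamID or FAIRE list held anything in these 11.8 kb. High scores were reached by 4 of the 5, the exception being the fragment with 612. Over the genome 1.92% of 210 kb windows held a high score of N1/RBP, and 71.1% of its 284 high regions lay in total FAIRE, against 0 of these 4. Being held by N1/RBP alone is not rare, at 5.23% of all fragments. The 2 other fragments of the window in that class scored 225 and 224.

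The rest of the Rbpj window held scattered fragments, many of 1 list, and some that most lists shared. All 6 lists held 3 of the 35 fragments (8.57%), a small count, against 3.01% of all fragments of the genome. Among the shared ones, chr5:53944801-53945231 was in every list but N1/N1, with scores from 266 to 558. Around chr5:53954530-53957781, 6 adjoining fragments were held by both Mef2c lists throughout and by 1 to 4 N1 lists in 5 cases. The highest score of the place, 655, was on chr5:53955497-53955997, which scored 466 in N1/RBP, 518 in N1/MAML, 536 in N1/p300, 415 in N1/N1, 655 with Mef2c and MAML and 495 with Mef2c and p300. Of these 6 fragments 4 overlapped total FAIRE regions. The window also held 2 Notch-dependent FAIRE regions, with MACS scores of 213.12 and 137.55, at chr5:53881640-53882690 and chr5:53900508-53901379. Each overlapped 1 fragment, held at 260 by N1/p300 and at 503 by N1/N1. No high fragment of Ep300, Maml1, Rbpj or Mef2c overlapped a region of either FAIRE list.

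N1/RBP was the list with the fewest leading regions at these loci, and 9 of its 20 leading regions lay on chromosomes 3, 4 and 6, at places named here after their scores were seen. The highest, chr3:97950457-97950975, scored 854, and 3 more between chr3:97945428 and 97951844 scored 845, 819 and 825. On chromosome 4, chr4:49362469-49364912 scored 812, and 3 fragments between chr4:49443314 and 49448496 scored 783, 765 and 764. On chromosome 6, chr6:46479230-46480718 scored 818. Of these 9, 6 were held by N1/RBP alone and 3 also by N1/MAML. RefSeq (GRCm38.p6) lists 3 pseudogenes of Rbpj, which are Rbpj-ps1 and Rbpj-ps2 on chromosome 4 and Rbpj-ps3 on chromosome 6. None of them is listed on chromosome 3, where the highest region of N1/RBP lay. Their mm9 positions were not used here, and whether they hold the fragments on chromosomes 4 and 6 was not tested. Which genes lie at the fragments on chromosome 3, unfused relatives of the fused proteins among them, was not tested either.

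At Mef2c, the gene of the transcription factor in the pairs without N1, both Mef2c lists held 8 fragments and no N1 list held any of them. High scores were reached by 7, spread over 70.1 kb from chr13:83732121 to 83802236, of which they covered 4.43%. In the order of position Mef2c/MAML gave them 770, 853, 679, 624, 831, 786 and 789, and Mef2c/p300 gave 785, 837, 644, 742, 817, 867 and 833. The 8th fragment, chr13:83731895-83732120, adjoined the first and scored 608 and 578. Neither list was higher throughout, with Mef2c/MAML above in 3 of the 7. The fragments were short, from 109 to 1076 bp with a median of 365 bp, and gaps between them reached 40101 bp.

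The Mef2c window held 21 regions of the 9 lists in its 180 kb. How many a window of that length usually holds is not given here, so the counts below have no background. Mef2c/p300 alone held 2 more fragments, at 313 and 181. N1/RBP, N1/MAML, N1/p300 and both FAIRE lists held 0 regions there, and N1/N1 held 2 adjoining fragments at 124 and 340. The 1 ChIP region, chr13:83662581-83662670, with a ratio of 13.56, overlapped no SpDamID fragment. Over the genome 5.68% of fragments were held by both Mef2c lists and no other, against 8 of 12 here, and 4.48% of 180 kb windows held a high score of a Mef2c list. Of the 763 fragments with a high score in a Mef2c list, 34.3% lay in total FAIRE, against 0 of 7 at this locus. Each Mef2c list comes from 1 library. Both FAIRE lists are for N1wt cells, so open chromatin of the cells with Mef2c fusions is not known from these data. The same limit holds for the cells with p300, MAML and RBP fusions and the FAIRE counts at Ep300, Maml1 and Rbpj.

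**Figure D2:**
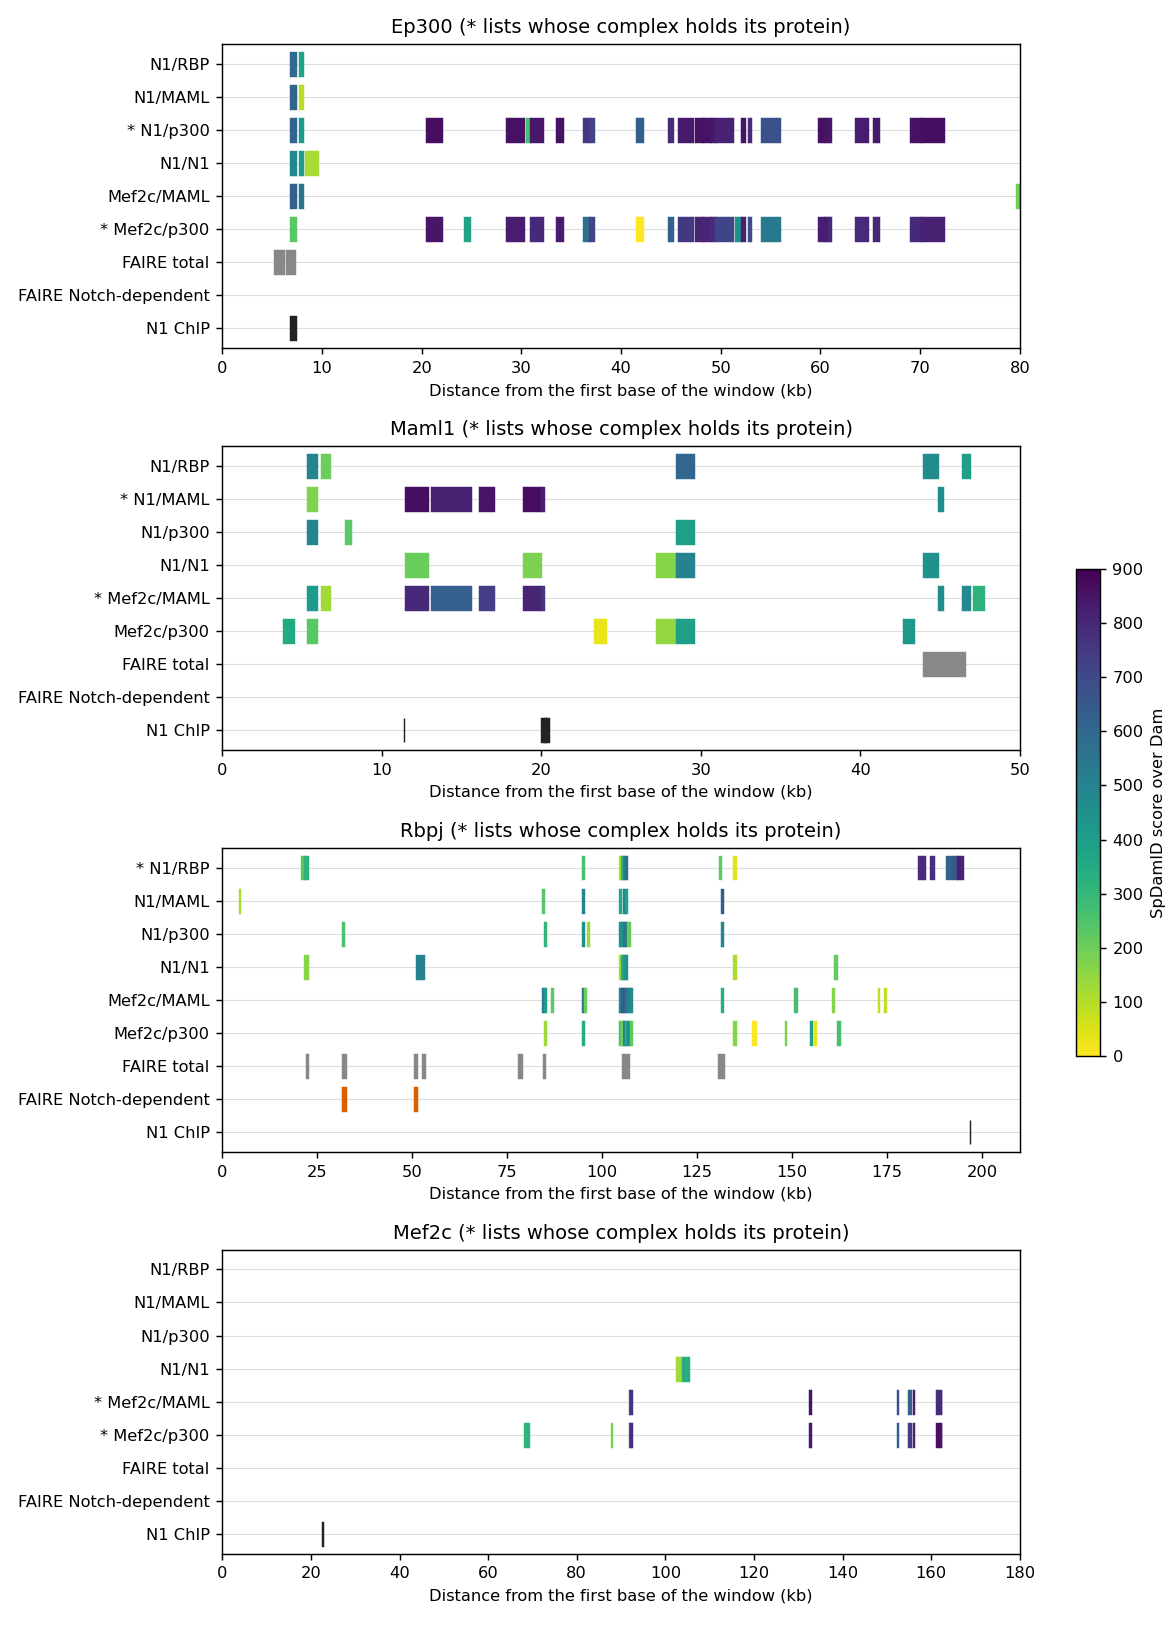
Regions of the 9 lists (rows) at Ep300, Maml1, Rbpj and Mef2c against distance from the first base of the window in kb; colour gives the SpDamID score over Dam, FAIRE and ChIP regions carry 1 colour per list, and an asterisk marks lists whose pair contains the gene's protein. Fragments with high scores (the highest 1% of a list) stand only in asterisked rows, without FAIRE regions beneath them. The mostly paler fragments that several lists share, at up to 655 in Mef2c/MAML at Rbpj, stand apart from the high ones. The exception is Maml1, where N1/N1 held pale fragments on the run of high ones.

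Notch1 was marked by all 4 N1 lists, most strongly in 7.04 kb from chr2:26315080 to 26322115. This cluster held 7 fragments, and all 7 were in N1/MAML and N1/N1 and 6 in N1/RBP and N1/p300. The first, chr2:26315080-26316404, scored 833 in N1/RBP, 852 in N1/MAML, 817 in N1/p300 and 838 in N1/N1. The fragment chr2:26318173-26319926 scored 824, 863, 830 and 847 in the same order, and chr2:26320207-26320456 scored 795, 845, 795 and 832. The fragment chr2:26316842-26317945 was somewhat lower, at 705, 792, 751 and 761. All 4 N1 lists thus had high scores on these 4 fragments.

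The N1 lists parted on the other fragments with high scores. On chr2:26320457-26321282, N1/MAML scored 865 and N1/N1 851, the highest score of that list, but N1/RBP scored 440 and N1/p300 495. On the short chr2:26316405-26316630 the N1/MAML score was 721, the N1/N1 score 649, the N1/p300 score 421 and the N1/RBP score 130. The fragment chr2:26321427-26322115, the last of the cluster, was held by N1/MAML at 791 and N1/N1 at 760 and by no other list. So was chr2:26358511-26359136, which lies 36395 bp further on, at 778 and 775. Being held by just these 2 lists is a class of 0.242% of all fragments, and the class of all 4 N1 lists and no Mef2c list, with 4 of the 20 fragments here, takes 0.332%. N1/MAML scored above N1/N1 on 8 of 8 high fragments, by 3 to 72, and above N1/p300 on 6 of 6. The whole N1/MAML list also scored higher, with a median of 366 against 285 in N1/N1 and 342 in N1/p300. By rank within each list, N1/N1 stood ahead of N1/MAML on every high fragment but chr2:26316405-26316630, at rank 400 against 100. Against N1/p300, N1/MAML stood ahead by rank on all 6. Whether libraries of these lists differ in depth is unknown, and the part of such a difference was not tested.

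**Figure D3:**
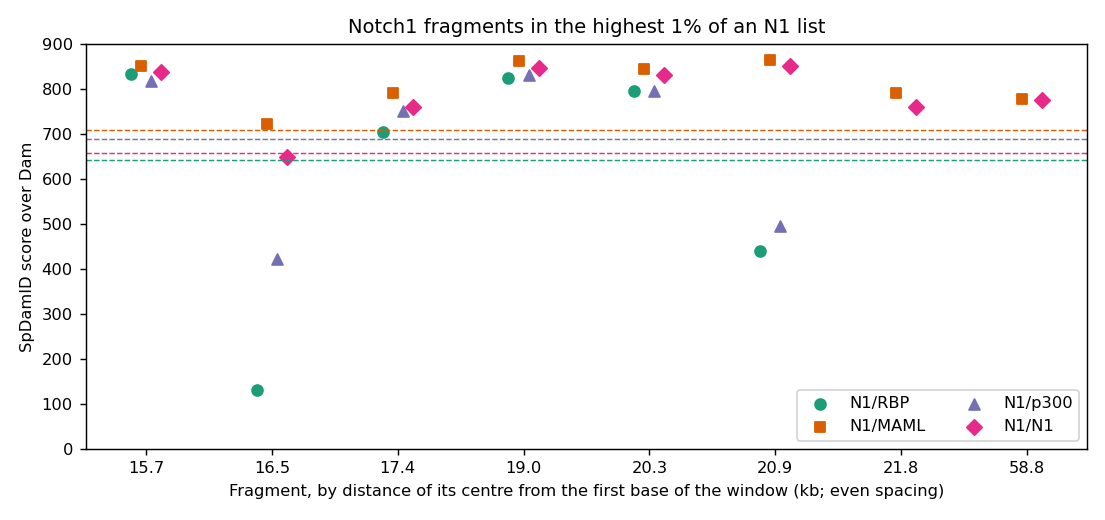
SpDamID score over Dam in the 4 N1 lists for the 8 Notch1 fragments in the highest 1% of an N1 list, ordered by distance of their centre from the first base of the window (kb, evenly spaced); dashed lines give the score at which each list's highest 1% begins. N1/MAML and N1/N1 have a point on every fragment, from 649 to 865, while N1/RBP and N1/p300 drop to 130 to 495 on 2 fragments and are missing from the last 2.

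The Mef2c lists were low or missing on this cluster. Mef2c/MAML held 2 of the 7 fragments, at 167 on chr2:26318173-26319926 and 119 on chr2:26320457-26321282, both below its median of 350, and Mef2c/p300 held 0. Of the 4 high fragments at the 5 loci that any other list also held, these were 2 and the other 2 were those of N1/N1 at Maml1. The remaining 41 of the 45 high fragments were held by no list without the protein. These 45 were picked by their scores in the lists with the protein, and the like share of all high fragments of the genome was not counted. Over the genome 1.87% of 75 kb windows held a high score of an N1 list, and the 1 window that held 8 or more lay at Ep300, since N1/p300 is an N1 list as well.

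Notch1 was the only one of the 5 loci with FAIRE regions on fragments with high scores, and most of these fragments had ChIP regions too, against 1 of 5 at Maml1 and 0 at the other loci. The FAIRE lists are labelled N1wt and the ChIP list N1, and none is labelled for the other proteins. A difference between Notch1 and the other loci thus cannot be told apart from one that comes with the cells assayed. Of 8 such fragments, 7 overlapped total FAIRE, 6 Notch-dependent FAIRE and 6 a ChIP region. Over the genome the same shares were 64%, 14.9% and 6.73% of 773 fragments with a high score in an N1 list. The 4 Notch-dependent FAIRE regions of the window all lay on the cluster, with MACS scores of 2467.42, 555.91, 457.57 and 699.42, which rank 2, 12, 35 and 4 among 2396. In the total list the same places scored 2003.45, 584.22, 419.56 and 695.6. The ChIP list gave chr2:26320457-26321282 a ratio of 304.92 to input (rank 18 of 22307) and chr2:26315080-26316404 a ratio of 163.25 (rank 63). By the ChIP signal itself the order was the reverse, at 9.23 (rank 215) and 16.33 (rank 44), with input signals of 0.0303 and 0.1. The input signal was exactly 0.1 for most ChIP regions of the window, and the ratio of such a region follows its ChIP signal alone. Each ChIP region on a high fragment had the ends of that fragment, and how those ends were set was not tested. Of the 7 fragments of the cluster, chr2:26318173-26319926 had FAIRE but no ChIP region, and chr2:26321427-26322115 had neither.

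The second place with high scores at Notch1, chr2:26358511-26359136, had a FAIRE region of the total list at 182.39 but none of the Notch-dependent list. A ChIP region with the same ends had a ratio of 69.74, and ChIP regions on either side, from 26357914 to 26358510 and from 26359137 to 26359521, had ratios of 16.12 and 15.45. SpDamID held no region on these flanks.

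**Figure D4:**
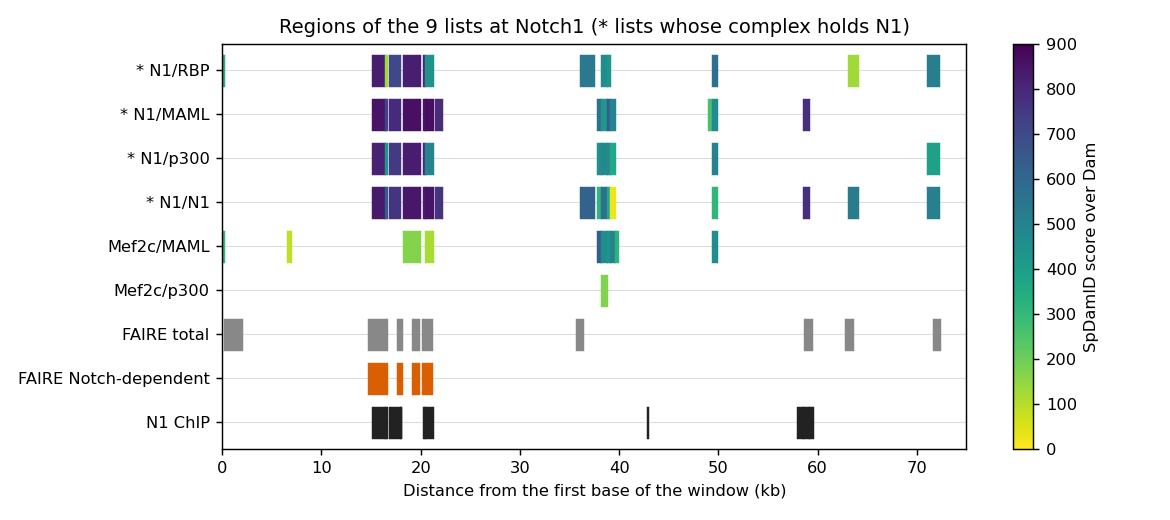
Regions of the 9 lists (rows) at Notch1 against distance from the first base of the window in kb; colour gives the SpDamID score over Dam, FAIRE and ChIP regions carry 1 colour per list, and asterisks mark the N1 lists. Dark fragments, Notch-dependent FAIRE and most ChIP regions stack between 15 and 22 kb, and further right most fragments are paler, some shared with Mef2c/MAML, except 1 that scores 778 in N1/MAML and 775 in N1/N1.

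Beyond the cluster, Notch1 held 13 more fragments, of which 1 had a high score. N1 and Mef2c lists together held 6 of them, N1 lists alone 5 and Mef2c lists alone 2. Over the genome 26% of fragments were in both kinds of list and 67.5% in a Mef2c list, so the 8 of 13 in a Mef2c list here are near the share of all fragments. Between chr2:26336037 and 26339934, 6 fragments had highest scores of 532 in N1/RBP, 635 in N1/MAML, 475 in N1/p300, 621 in N1/N1, 635 in Mef2c/MAML and 175 in Mef2c/p300. The only fragment of the window in all 6 lists, chr2:26338163-26338781, is among them, at 460, 424, 475, 577, 461 and 175. That is 1 of 20 fragments, against 3.01% of all fragments of the genome. Mef2c/MAML held 5 of these 6, the exception being chr2:26336037-26337433, held by N1/RBP at 532 and N1/N1 at 621. Further on, chr2:26349334-26349855 was in 5 lists, at 574 in N1/RBP, 468 in N1/MAML, 502 in N1/p300, 310 in N1/N1 and 461 in Mef2c/MAML.

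Total FAIRE was found on some of these. Of the 5 fragments outside the cluster that N1 lists alone held, 4 overlapped total FAIRE, and of the 6 shared with Mef2c lists, 1 did. Over the genome 35.3% to 37.9% of the regions of each N1 list and 18.2% to 21.9% of those of each Mef2c list lay in total FAIRE. These shares take in all regions of a list, whichever other lists held them, and so are not of the same classes. The 1 shared fragment in total FAIRE lay across the first base of the window, at chr2:26299475-26300154, with scores of 331 in N1/RBP and 300 in Mef2c/MAML and a FAIRE region at 642.3. None of the 13 overlapped Notch-dependent FAIRE, a list of only 2396 regions. The share of all 96409 fragments that overlap this list is not given here. Among the 773 fragments of the genome with a high score in an N1 list it was 14.9%. Without the share of all fragments, this count cannot set the 13 apart from other fragments. Near the end of the window, chr2:26371041-26372188 scored 515 in N1/RBP, 384 in N1/p300 and 513 in N1/N1 and overlapped a total FAIRE region at 108.96. The fragment chr2:26363107-26364071 scored 524 in N1/N1 and 130 in N1/RBP, with a FAIRE region at 91.14. These FAIRE scores lie below the list's median of 156.73. These counts are small and were not tested.

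**Figure D5:**
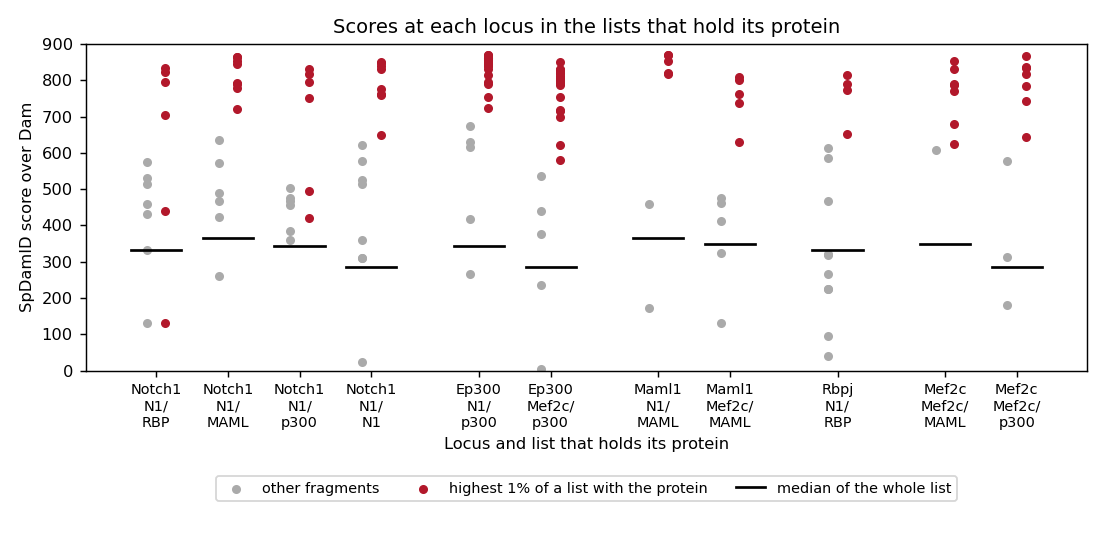
SpDamID scores over Dam at each locus in the lists whose pair contains its protein; red points are fragments in the highest 1% of such a list, grey points are the other fragments of the window, and black bars are the medians of the whole lists. Red points stand at 580 or above except for 2 fragments each of Notch1 in N1/RBP and N1/p300, and grey points reach 675 at most.

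At each of the 5 loci, high scores and the presence of the gene's protein in the pair went together. Fragments of DNA that carries a coding sequence without introns would follow exons of that gene. Gene models of mm9 were not used here, so whether the runs at Ep300, Maml1, Rbpj, Mef2c and Notch1 follow exons, and what part DNA of the constructs takes in them, was not tested. The same holds for the FAIRE and ChIP regions of the Notch1 cluster, whose libraries are labelled N1wt and N1. Gaps within the runs, of up to 7491 bp between high fragments at Ep300 and 40101 bp at Mef2c, are given here as measured. The unfused relatives of these proteins were not placed either, because their mm9 positions were not used.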

How the data were processed

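The 25 libraries are represented by 9 deposited region lists with no value per library (mm9, per the submitters' processing notes), so depth per library and its precision are unknown. Each SpDamID region has a deposited score over Dam in whole numbers, and the file headers put its confidence at 0.999 or more. FAIRE scores are those of MACS run in Galaxy, also per the file headers. For ChIP the deposited file gives a signal for ChIP and for input and their ratio. The sources used here do not name an aligner, versions or how Notch-dependent peaks were chosen. Lists were matched to groups by initials of the fused proteins.

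Coordinates were taken as 1-based, so FAIRE starts were moved by 1 base, and FAIRE regions on contigs other than the numbered, X and Y chromosomes (43 in the total list, 7 in the other) were left out. Overlap meant 1 bp or more. Scores were ranked within each list, with ties kept. Clusters were split at gaps over 5 kb. Genome shares used all fragments, and consecutive windows of each locus's length. Members and lists were chosen with earlier results of these data known. Named regions were the highest of each list at each locus and, at Notch1 and Mef2c, all fragments in the highest 1% of a list; others named in the text were chosen after their values were seen. Functions were tested on simulated data. Python 3.11.15 and numpy 2.4.6 were used, with matplotlib 3.10.9 for figures. Alternatives changed the window rule, window width, score minimum and overlap rule.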

Additional observations from a re-analysis of the deposited data

How the results depend on the processing

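Of 86 alternative values for 23 counts, 79 lay within 1.5 times the reported count and 7 did not. With scores from each list's median up, the regions at Rbpj fell to 41 from 81, its fragments in N1 lists to 12 from 23 and its fragments in Mef2c lists to 10 from 22. The same minimum left 5 of 10 fragments in Mef2c lists at Notch1 and 1 of 2 fragments in N1 lists at Mef2c, since weak fragments are removed by construction. Alternatives chosen after the data were seen concerned fragments held only by lists that contain the protein, of which Rbpj kept 4 of 7 in windows narrowed at each end and 4 in the highest 1% of each list. Placing regions by centre, or by the greater part of their length, moved no count past 1.5 times. The exon counts were not run, as no mm9 gene model was used. No paired analysis was possible because the lists pool their libraries and give no value per library. Depth per library is unknown, and a region missing from a list may have been below its threshold. Scores of different lists may not be on 1 scale.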
